A study of Homo sapiens with 6 samples.

Results

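The transcripts described here come from 9 human genes whose products bind AU-rich or related decay elements in messenger RNA, as HuR does: ZFP36, ZFP36L1, ZFP36L2, HNRNPD, KHSRP, TIA1, TIAL1, RC3H1 and RC3H2. The genes were chosen by name, each with a fixed span on hg19, and an interval of the deposited HuR lists counted as a site of a gene when it overlapped that span on the gene's own strand. Of the 658853 sites in the list that combines the HuR replicates, 535 belonged to these 9 genes. The counts were 283 of 186157 sites in HuR replicate 1, 440 of 405048 in replicate 2 and 526 of 550681 in replicate 3.

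The study used DO-RIP-seq, in which RNA in a cell lysate is trimmed by micrococcal nuclease, an antibody recovers a protein with the RNA fragments it protects, and the fragments are sequenced. All samples came from HEK293, an established human embryonic kidney line, with no treatment given in the labels. There were 3 immunoprecipitations with the mouse anti-HuR antibody 3A2 and 3 negative controls with normal mouse serum, and fragments of 25 to 70 nt were cut from a gel. The serum controls were not analysed here as separate values. Digested lysate was pooled before it was split over the reactions, so the spread between HuR replicates may be technical only. Each site carries a LOD score from the authors, for which the sources used here state neither log base nor reference. Scores are therefore given mostly as ranks within a list, where percentile 100 is the highest score. Read depth per library is unknown, and transcript abundance was not analysed here, so stronger binding and more RNA of a gene cannot be told apart in the amount of called sequence.

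AU-rich elements are stretches with repeats of AUUUA, found mainly in 3′ untranslated regions (3′ UTRs), and they tie a messenger RNA to rapid decay or to translational control. HuR is known chiefly for stabilising such messages. Proteins of the ZFP36 family recruit the deadenylase machinery to the same kind of element, and several of these regulators are known to bind their own or each other's messages.

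The 3′ UTRs of the 9 genes differ in how much of this motif they hold. For each gene the longest complete protein-coding transcript in GENCODE release 29, which is on GRCh38, was searched on the transcript strand for ATTTA and for the nonamer TTATTTATT, the classical ZFP36 element, which itself contains ATTTA. Of the 9 genes, 8 had at least 1 ATTTA and 4 had the nonamer, against 66.9% and 8.15% of 19032 protein-coding genes. These shares take no account of 3′ UTR length, which was 713 to 7507 nt in the 9 genes against a median of 1034 nt over all genes. ZFP36 had 5 ATTTA in a 3′ UTR of 713 nt, or 7.01 per kb, and RC3H2 had 25 in 5071 nt, or 4.93 per kb. ZFP36L1 had 4.28 per kb, TIA1 3.97, RC3H1 2.80, ZFP36L2 2.61, TIAL1 1.81 and HNRNPD 1.19, where the median over all genes was 1.47. KHSRP had none in 764 nt.

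The following stretches show the densest element in 6 of these 3′ UTRs, chosen to set the nonamer carriers beside TIA1 and beside KHSRP, which has no ATTTA. Each is the 30-nt stretch with the most nonamers, then the most ATTTA, then the most A and T, written 5′ to 3′ with ATTTA in capitals.
ZFP36: tttATTTAtgacgactttATTTAttctaat
ZFP36L1: aaaaaactgttggattATTTAttttagaaa
ZFP36L2: aatatgaaaactATTTAacttATTTAttat
RC3H2: acttagttaacttATTTAtttctattttat
TIA1: aatgtATTTATTTAaaagattcatttttaa
KHSRP: ttataaaattatatatatatatattaaaaa
On GRCh38 these lie at chr19:39409190-39409219 on the plus strand for ZFP36 and, on the minus strand, at chr14:68788080-68788109 for ZFP36L1, chr2:43223456-43223485 for ZFP36L2, chr9:122849199-122849228 for RC3H2, chr2:70212582-70212611 for TIA1 and chr19:6413761-6413790 for KHSRP. They describe the transcripts only. The HuR sites are on hg19, no sequence of that build was used, and whether a site covers one of these stretches was not tested.

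Nearly all of the sequence called on the 9 genes lay on the transcribed strand. In every replicate each gene had at least 1 site, and each had bases called in all 3 replicates. The share of other genes with a site was not computed, so this is a description only. The genes' own strand carried 99.7%, 99.9% and 99.2% of the bases called over the 9 spans in the 3 replicates, which averaged 99.6% ± 0.359 (SD, n = 3). The strand share over other genes was not computed either. On the opposite strand 0.236, 0.236 and 1.41 nt per kb were called, and none of those bases was called in all 3 replicates. On the genes' strand 71.8, 170 and 169 nt per kb were called in replicates 1, 2 and 3. Replicate 1 was the lowest, and its whole list is also the smallest. Per Mb of sequence called anywhere in a list, the 9 genes held 1834, 1497 and 1237 nt in the same order, so replicate 1 gave them the largest share.

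Sites on the 9 genes recurred more often than the average site of the lists. Of the 535 combined sites, 206 (38.5%, 95% Wilson interval 34.5% to 42.7%) overlapped a site in all 3 replicate lists, against 22.9% of all combined sites. A combined site is called kept by the authors' p filter when it overlapped a region of their p-filtered list by at least 1 nt. This held for 335 of the 535 (62.6%, interval 58.4% to 66.6%), against 52.3% of all combined sites. The p-filtered list had 405 regions on the 9 genes, so it does not match the combined list site for site. A kept site need not have passed the filter over its whole width. Both Wilson intervals treat sites as independent, but the sites cluster in 9 genes, so the intervals may be too narrow. By gene the share found in all 3 lists ran from 29.6% in RC3H2 to 66.7% in KHSRP. Of the replicates' own sites on the 9 genes, 267 of 283, 224 of 440 and 237 of 526 overlapped both other lists. These are 94.3%, 50.9% and 45.1%, where the whole lists gave 89.1%, 37.8% and 28.4%. Of the 46729 bases called in any replicate, 15619 (33.4%) were called in all 3, against 21.8% over the whole lists. Sites on these genes were also wider, with a median of 70 nt against 50 nt in the combined list, and 48 of 535 (8.97%) exceeded 200 nt against 2.06% of all. The part of width and of transcript abundance in the higher recurrence was not tested.

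With lists cut to the size of the smallest, 24.1% of the combined sites on the 9 genes were found in all 3 replicates against 13.1% of all combined sites. When an overlap had to span 50% of both intervals, the values were 18.5% and 13.4%, the p filter kept 43.9% against 41.7%, and a mean of 32.7% of the replicates' sites recurred in both other lists, down from 63.4%. Without replicate 1, 69.5% of the combined sites were in both other lists against 51.2% of all, and 69.9% of the called bases were shared. The combined list was made from the same replicates, so its scores and this recurrence are not independent. An exact sign-flip test over 3 replicates has 0.25 as its smallest two-sided p, and these differences are therefore given without a test.

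**Figure D1:**
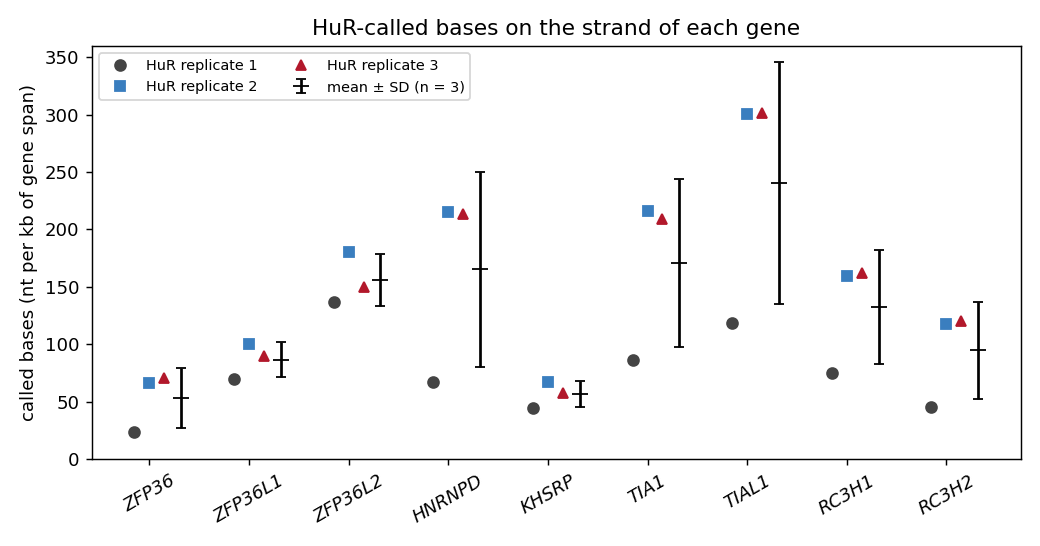
Bases called as HuR-bound on the gene's strand, in nt per kb of gene span (y axis), for each of the 9 genes (x axis) in HuR replicates 1, 2 and 3 (points), with the mean and SD of the 3 (bars). Replicate 1 is the lowest for every gene, and TIAL1 is the highest gene in replicates 2 and 3, at 300.5 and 301.9 nt per kb.

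Among the 9 genes, TIAL1 had the highest mean of called sequence for its length and ZFP36 and KHSRP the lowest, as the plot of called bases by gene shows. In replicate 1 alone ZFP36L2 was higher, at 137 nt per kb against 119 for TIAL1. The means were 240.3 ± 105.5 nt per kb for TIAL1, 171 ± 73.0 for TIA1, 165 ± 85.0 for HNRNPD, 156 ± 22.6 for ZFP36L2 and 132 ± 49.5 for RC3H1 (SD, n = 3). RC3H2 had 94.6 ± 42.4, ZFP36L1 86.6 ± 15.5, KHSRP 56.4 ± 11.4 and ZFP36 53.4 ± 26.0 nt per kb. Replicate ranges of neighbours in this order overlapped everywhere except between ZFP36L1 and KHSRP. The order of the means shifted when a replicate was left out. Without replicate 1 HNRNPD came before TIA1 and ZFP36 before KHSRP, and without replicate 3 ZFP36L2 was second. TIAL1 had the highest mean whichever replicate was left out.

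The density of bases called in all 3 replicates, each over the gene's own span, was high for most of these genes beside windows of 10 kb. Across 97485 windows of 10 kb, counted by strand, that held a combined site, the median was 0 nt per kb and the 90th percentile 25 nt per kb. ZFP36L2 had 115 nt per kb in all 3 replicates, TIAL1 110, TIA1 79.6, RC3H1 69.1, ZFP36L1 66.3, HNRNPD 65.7, KHSRP 44.0 and RC3H2 43.3. Only ZFP36, at 23.4 nt per kb, was below that 90th percentile. The windows take no account of gene ends or exons, and the spans run from 2559 to 61772 nt. A short span, such as the 4205 nt of ZFP36L2, leaves out flanking sequence that a 10-kb window would hold. The values thus set the scale and are no comparison with other genes.

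**Figure D2:**
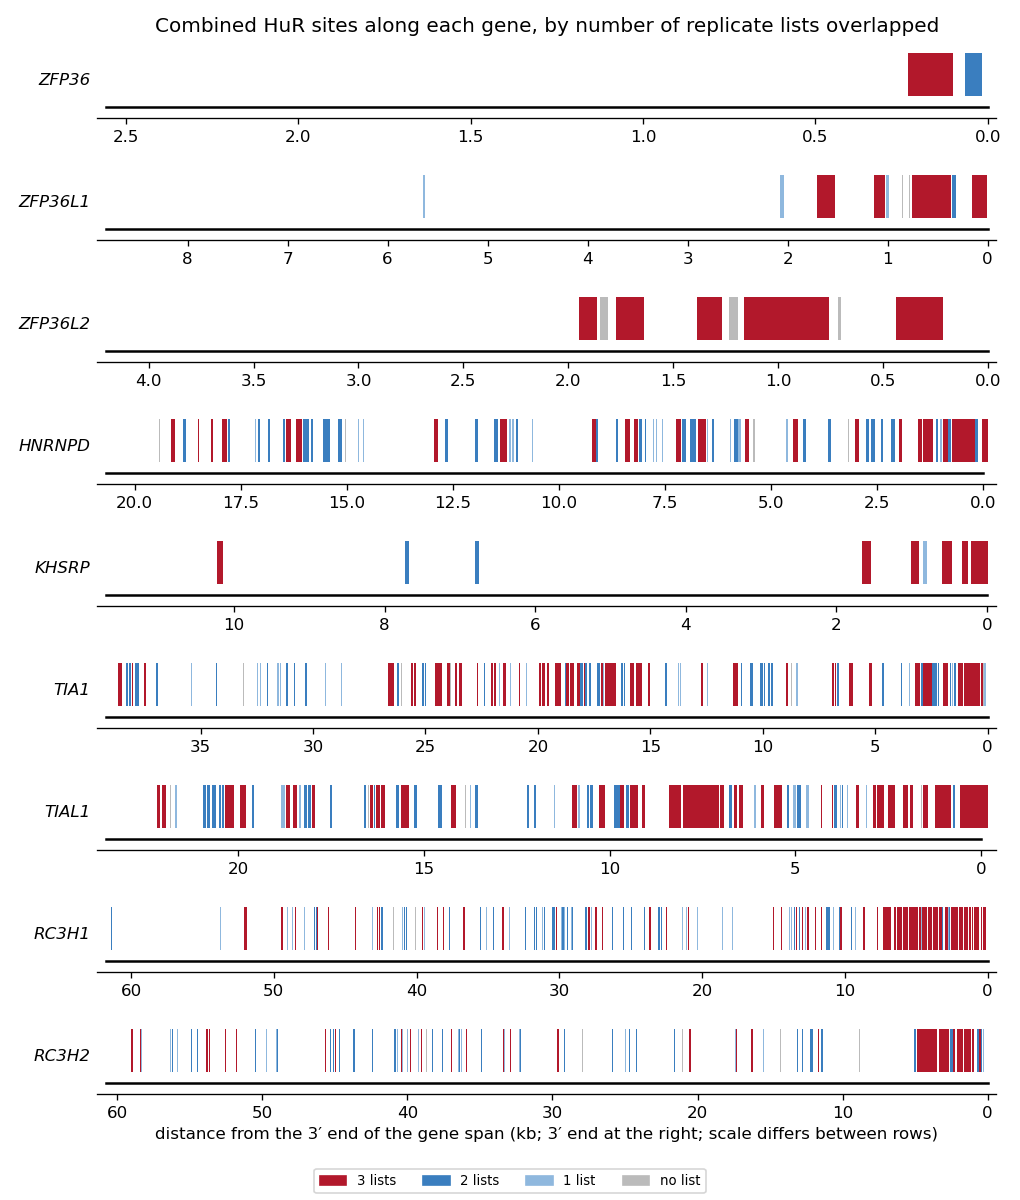
Position of every combined HuR site (bars) on each of the 9 genes, as distance from the 3′ end of the gene span in kb (x axis, 3′ end at the right, a separate scale for each gene), coloured by how many of the 3 replicate lists the site overlaps. Sites found in all 3 lists lie toward the 3′ end in ZFP36, ZFP36L1, ZFP36L2 and, for the most part, KHSRP, while the other 5 genes have a 3′ cluster and further such sites along the span.

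By the share of bases called in all 3 replicates that lay within 3 kb of the 3′ end, the genes fell into 2 layouts. Both are seen in the map of combined sites. In ZFP36, ZFP36L1 and ZFP36L2 every base called in all 3 replicates lay within 3 kb of the 3′ end of the span, and in KHSRP 87.4% did. For ZFP36 this holds by construction, as its whole span is 2559 nt, while the last 3 kb made up 71.3% of ZFP36L2, 34.0% of ZFP36L1 and 25.6% of KHSRP. In the other 5 genes the share was 37.2% for HNRNPD, 35.8% for TIAL1, 27.4% for RC3H2, 26.8% for TIA1 and 19.6% for RC3H1. The last 3 kb made up 14.5%, 12.7%, 4.94%, 7.65% and 4.86% of those spans, so called sequence was denser there than in the rest of each gene. The layouts went with span length, 2559 to 11704 nt in ZFP36, ZFP36L1, ZFP36L2 and KHSRP and 20683 to 61772 nt in the other 5. The listed 3′ UTRs of TIA1, TIAL1, RC3H1 and RC3H2, 3275 to 7507 nt, also exceed the 3-kb limit. Layout and length therefore cannot be told apart here. Over the 9 genes 34.6% of the bases called in all 3 replicates lay in the last 3 kb, which made up 11.4% of the summed span. As a mean of the 9 genes' own shares, each gene counting equally, it was 59.3%. In the last 3 kb, TIAL1 had 310 nt per kb called in all 3 replicates against 81.0 beyond, and RC3H1 had 278 against 58.4.

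**Figure D3:**
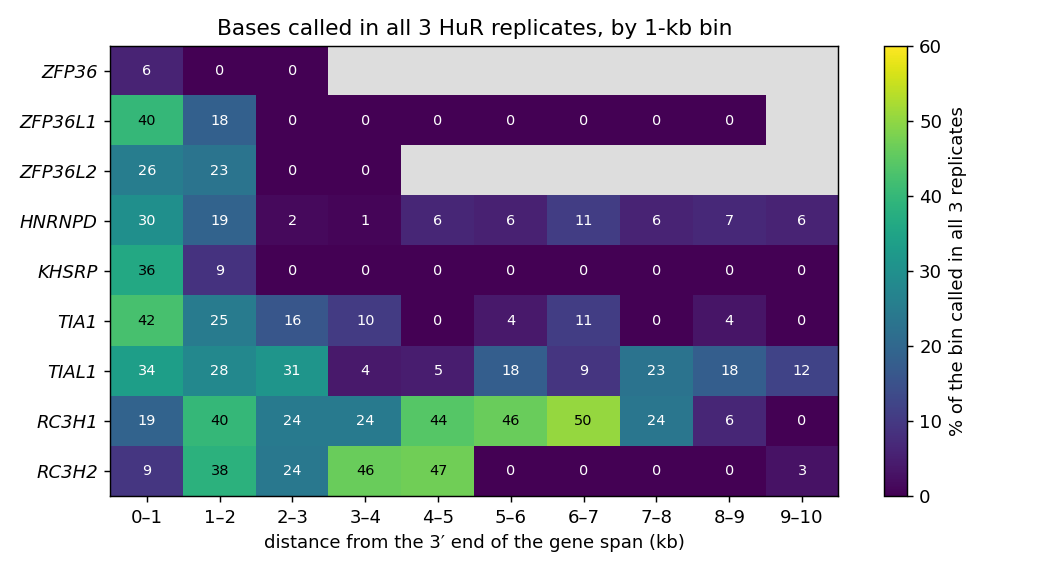
Share of each 1-kb bin that was called in all 3 HuR replicates (colour, and printed as a rounded %), by distance from the 3′ end of the gene span (x axis, kb), for the 9 genes (rows). Grey marks bins beyond the span or with under 500 nt of it, and the bin of ZFP36 at 2 to 3 kb holds 559 nt. RC3H2 is called densely up to 5 kb and at 0 from 5 to 9 kb.

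ZFP36 encodes tristetraprolin, the founding member of the family, and few bases of its span were called in the HuR lists. It had 1, 2 and 2 sites in replicates 1, 2 and 3, covering 60, 170 and 180 nt of its 2559 nt. Replicate 1 was the lowest and replicates 2 and 3 were close. All of this lay within 230 nt of the 3′ end. The site with the highest combined LOD, 16.2 (percentile 98.1 of the combined list), was at chr19:39899816-39899945 on hg19. It stood at percentiles 61.1, 97.8 and 98.1 in the 3 replicate lists, so replicate 1 ranked it far lower than the others. Its 60 nt called in all 3 replicates were the only such run in the gene. The p filter kept both combined sites of ZFP36, against 52.3% of all combined sites.

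ZFP36L1 and ZFP36L2, the 2 other family members, carried a few wide, recurrent sites near the 3′ end and several low-scoring ones. ZFP36L1 had 5, 6 and 8 sites covering 615, 885 and 790 nt, and ZFP36L2 had 11, 6 and 8 sites covering 575, 760 and 630 nt. Per kb of span ZFP36L2 had more called sequence in each of the 3 replicates, by 69.2 ± 10.3 nt per kb (SD, n = 3). This order rests on the longer span of ZFP36L1, 8819 nt against 4205 nt. Over the last 3 kb the bases called in all 3 replicates came to 195 nt per kb in ZFP36L1 and 162 in ZFP36L2. Bases called in all 3 replicates reached no farther than 1689 nt from the 3′ end in ZFP36L1 and 1925 nt in ZFP36L2. For scale, GENCODE lists 3′ UTRs of 1871 and 1917 nt for these genes, though ends were not matched between builds.

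In ZFP36L1 the leading site was a 390-nt stretch at chr14:69254741-69255130 with a combined LOD of 18.2 (percentile 99.3), and it stood at percentile 96.0 ± 2.46 of the replicate lists (SD, n = 3). It held a run of 325 nt called in all 3 replicates, the longest in any of the 9 genes. In ZFP36L2 the leading site was at chr2:43451181-43451310 with a LOD of 15.02 (percentile 96.8), and its widest site covered 405 nt at chr2:43450296-43450700. Yet the median combined site stood only at percentile 16.1 in ZFP36L1 and 15.8 in ZFP36L2, the lowest of the 9 genes, and 5 of 10 and 4 of 8 sites were in the bottom decile. The combined sites found in all 3 lists were 4 of 10 and 5 of 8, against 22.9% of all combined sites. Of the bases called in any replicate 60.9% and 58.8% were called in all 3, so here most of the called sequence recurred. On the opposite strand of ZFP36L1 25, 35 and 145 nt were called in replicates 1, 2 and 3, none of it in all 3.

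KHSRP, which encodes the KH-type splicing regulatory protein KSRP, a factor that promotes decay of AU-rich messages, had few sites, of mixed rank. It had 6, 9 and 10 sites covering 520, 785 and 677 nt in replicates 1, 2 and 3. Of 9 combined sites 6 were found in all 3 lists, against 22.9% of all combined sites. The median combined site stood at percentile 87.6, with 4 sites in the top score decile and 3 in the bottom decile. The replicate medians were lower, at percentiles 78.6, 60.7 and 57.3. The strongest, at chr19:6413366-6413445, had a LOD of 16.6 (percentile 98.4) and replicate percentiles of 97.8, 90.6 and 94.5. In the last kb 36.3% of the bases were called in all 3 replicates, in the second kb 8.70%, and from 2 to 10 kb none were. A further 65 nt called in all 3 lay beyond 10 kb, at most 10217 nt from the 3′ end. The listed 3′ UTR of KHSRP, which holds no ATTTA, holds 15 overlapping TTTTT pentamers in 764 nt. Those of all 9 genes hold this pentamer, with 7 in 713 nt for ZFP36 and 86 in 3863 nt for TIAL1. No value over all genes was computed, and the place of the pentamers relative to the sites was not tested.

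HNRNPD encodes AUF1, an RNA-binding protein with several isoforms that mostly promotes decay, and its sites ran over nearly the whole gene. It had 26, 58 and 67 sites covering 1389, 4454 and 4414 nt in replicates 1, 2 and 3. Replicate 1 lay far below the other lists, with 67.2 nt per kb against 215 and 213. Relative to the size of each list the gene was steady, at 152, 168 and 139 nt per Mb of called sequence. The highest combined LOD among the 9 genes, 19.9 (percentile 99.7), was at chr4:83287326-83287405, 12859 nt from the 3′ end. Replicates 2 and 3 ranked it at percentiles 98.97 and 99.6, but replicate 1 at only 54.8. Of 71 combined sites 23 (32.4%) were found in all 3 lists, against 22.9% of all combined sites, and 38 (53.5%) were kept by the p filter, about the 52.3% of all. A site with a LOD of 14.6 crossed the 3′ end of the span.

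TIA1 and TIAL1 (TIAR) encode related proteins that bind U-rich and AU-rich RNA, silence translation and assemble stress granules. Both transcripts were covered densely. TIA1 had 60, 95 and 103 sites covering 3395, 8490 and 8210 nt in replicates 1, 2 and 3, and TIAL1 had 51, 72 and 86 sites covering 2793, 7080 and 7115 nt. Per kb TIAL1 exceeded TIA1 in each replicate, by 31.96, 84.0 and 92.6 nt per kb, averaging 69.5 ± 32.8 (SD, n = 3). TIAL1 sites also ranked higher, with replicate medians at percentiles 66.1, 61.1 and 57.1 against 52.8, 55.8 and 51.2. In GENCODE the same-strand gene C2orf42 overlaps 39172 nt of TIA1, so sites in TIA1 cannot be told apart from sites in that transcript. Shorter same-strand genes are listed inside RC3H1 (RC3H1-IT1, 6940 nt, and RNA5SP68, 119 nt), RC3H2 (SNORD90, 111 nt) and KHSRP (MIR3940, 102 nt). Whether any site belongs to these was not tested.

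The strongest site of TIA1, at chr2:70443426-70443490, had a LOD of 19.8 (percentile 99.7) and stood at percentile 97.9 ± 2.07 of the replicate lists (SD, n = 3). That of TIAL1, at chr10:121354926-121355020 and 21948 nt from the 3′ end, had a LOD of 18.3 and replicate percentiles of 97.8, 97.5 and 97.1. Both ranked high in every replicate, unlike the leading site of HNRNPD. The widest site of each lay near the 3′ end, 690 nt in TIA1 at chr2:70436931-70437620 and 750 nt in TIAL1 at chr10:121332801-121333550, the latter running 177 nt past the span. Wide sites also lay farther in, with 625 nt in TIAL1 from 7388 nt and 480 nt in TIA1 from 16520 nt from the 3′ end. Combined sites wider than 500 nt numbered 4 of 535 (0.748%) on the 9 genes, against 0.121% of all, with 2 in TIAL1 and 1 each in TIA1 and RC3H2. In the last kb 42.5% of TIA1 and 33.7% of TIAL1 was called in all 3 replicates, and a further group of sites 10 to 20 kb from the 3′ end of TIA1 held 1270 nt called in all 3.

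Much of the called sequence of TIA1, TIAL1 and HNRNPD was more than their own listed coding transcripts can hold. The exons of all complete protein-coding transcripts in GENCODE sum to 4880 nt for TIA1, 5087 nt for TIAL1 and 3063 nt for HNRNPD, while 9840, 8333 and 5224 nt were called in at least 1 replicate. At least 50.4%, 39.0% and 41.4% of the called bases were thus beyond what those exons can hold, even if each exon base were called. For RC3H1 the bound was 4.46%, and for the others the exons were longer than the called sequence, so no bound follows. This uses lengths only, from another build than the sites, and leaves out exons of non-coding transcripts and of overlapping genes. In the bases called in all 3 replicates the totals were below the exon length for all 9 genes.

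RC3H1 and RC3H2 encode the roquins, known for binding stem-loop decay elements in 3′ UTRs of immune and developmental messages and recruiting deadenylases. RC3H1 had 80, 112 and 135 sites covering 4635, 9860 and 10005 nt in replicates 1, 2 and 3, and RC3H2 had 43, 80 and 107 sites covering 2775, 7165 and 7305 nt. Per kb of the spans used RC3H1 was higher in each replicate, by 29.4, 41.7 and 41.8 nt per kb, averaging 37.6 ± 7.15 (SD, n = 3). This order holds for these spans only. GENCODE lists 91084 nt for RC3H1 against a span of 61772 nt, and for RC3H2 60786 nt, the same as its span. Sites of RC3H1 also ranked higher, by 10.2 ± 1.59 percentile points in the replicate medians (SD, n = 3). Of the combined sites 56 of 134 (41.8%) in RC3H1 and 32 of 108 (29.6%) in RC3H2 were found in all 3 lists, against 22.9% of all combined sites. The p filter kept 87 (64.9%) and 65 (60.2%), against 52.3%.

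Both roquin transcripts had a long 3′ block of closely spaced HuR sites that ended within the first 10 kb. In RC3H1 between 19.0% and 50.5% of each of the first 7 kb from the 3′ end was called in all 3 replicates, then 23.5%, 6.50% and 0% in the next 3 bins of 1 kb. In RC3H2 the first 5 bins had 9.40%, 38.5%, 24.1%, 46.4% and 47.1%, and the next 4 had 0%. GENCODE lists 3′ UTRs of 7507 nt for RC3H1 and 5071 nt for RC3H2, lengths close to those of the blocks, although the ends were not matched between builds. The densest bins lay at 6 to 7 kb in RC3H1 and 4 to 5 kb in RC3H2.

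The widest combined site on the 9 genes was in this block of RC3H2, 1005 nt at chr9:125610701-125611705, with a LOD of 10.1 and replicate percentiles of 87.6, 71.9 and 58.7. The highest score in RC3H2 among sites found in all 3 lists lay outside the block, at chr9:125623006-125623130, with a LOD of 15.5 and percentiles of 99.8, 88.9 and 99.2. In RC3H1 it lay inside, at chr1:173901346-173901475, with a LOD of 18.1 (percentile 99.3) and replicate percentiles of 87.6, 93.1 and 98.0. Beyond 20 kb from the 3′ end 2.47% of RC3H1 and 1.99% of RC3H2 was called in all 3 replicates. The span used for RC3H1 is 29312 nt shorter than the gene in GENCODE, which is on another build, and the annotated gene may reach beyond what was analysed here.

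**Figure D4:**
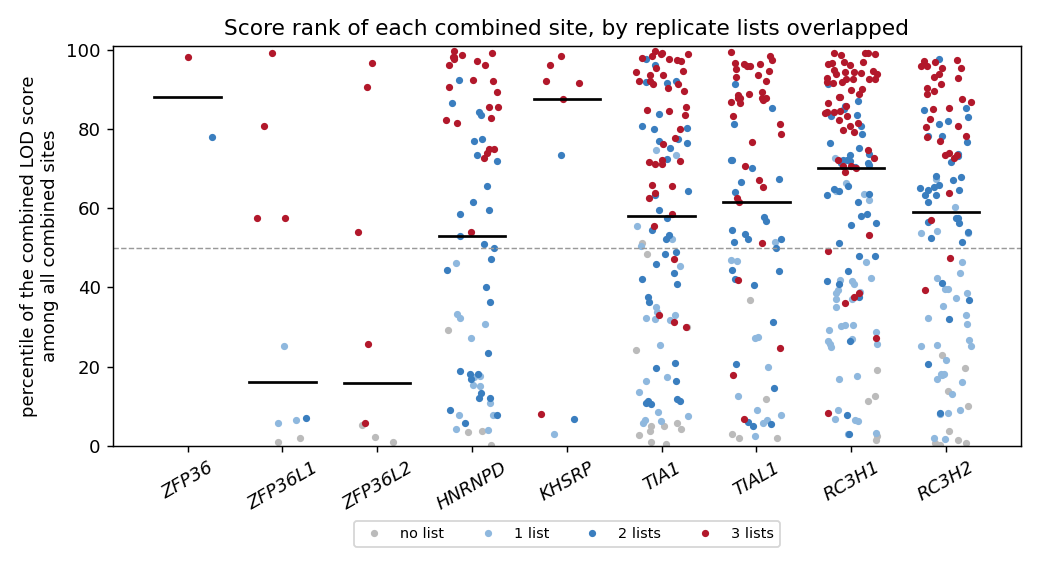
Percentile of the combined LOD score among all combined sites (y axis) for each combined site (points) of the 9 genes (x axis), coloured by the number of replicate lists overlapped; black lines are medians and the dashed line is the middle of the whole list. Medians run from 15.8 in ZFP36L2 to 88.0 in ZFP36, and sites found in all 3 lists gather at the top.

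By score the 9 genes ranged from low to high, as the plot of score ranks shows. The median replicate percentile of all their sites was 54.8, 61.2 and 54.8 in the 3 replicates, averaging 56.9 ± 3.73 (SD, n = 3), where 50 is the middle of a list. Of the 535 combined sites 99 (18.5%) were in the top decile of the combined list, and 70 (13.1%) were in the bottom decile. The top-decile sites were found in all 3 lists in 90 of 99 cases, against 90.0% of all top-decile sites, so at high scores these genes recurred at about the rate of the whole list. TIA1 held 5 of the 9 exceptions. Of the sites found in all 3 lists the p filter kept 205 of 206 (99.5%), close to the 98.1% of all such combined sites. Of the 40 found in no list it kept 1 (2.50%, against 10.4% of all).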

How the data were processed

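DO-RIP-seq libraries of HEK293 cells were analysed as lists of HuR sites, 1 for each of 3 HuR immunoprecipitations and 2 for all 3 combined. The submitters' processing notes name hg19 (GRCh37), TopHat2 2.0.8 and cutadapt 1.0. The authors deposited a LOD score for each interval, and the caller behind both is unstated in the labels and headers. All scores were above 0, and 1 combined list was limited by the authors at p 0.05, per its name. Coordinates are 1-based on hg19 and lie on a 5-nt grid. Depth per library is unknown.

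Sites were matched on the same strand with bedtools 2.31.1 at an overlap of at least 1 nt. Called bases were clipped to the gene spans, while sites were counted whole. Python 3.11.15, numpy 2.4.6, pandas 2.3.3, scipy 1.17.1 and matplotlib 3.10.9 were used. On 658853 simulated sites the number of overlapped lists was right for 100% of sites. Motifs and exon lengths came from GENCODE release 29 on GRCh38, all 9 genes matched by symbol, and no coordinate was carried between builds. Without an hg19 annotation, exons were not assigned to sites and a planned list of further decay genes was not run.

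The genes, measures and 3-kb limit were chosen with earlier results of these data known, and the motif search, 1-kb bins, exon bound and width counts after seeing the values. For each gene the site with the highest combined score among those in all 3 lists and the longest run called in all 3 were taken for description, with the widest site added. Alternatives were LOD above 1 or 2, equal list sizes, 50% overlap, the p-filtered list, other distances from the 3′ end and leaving out each replicate.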

Additional observations from a re-analysis of the deposited data

How the results depend on the processing

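Of 51 alternative values for the 8 results over all 9 genes, 33 stayed within the spread between replicates or, for shares, the 95% Wilson interval, which covers counting error only and treats sites or bases as independent. For score percentile, strand share and density, leaving out 1 replicate cannot move the mean outside the spread of the same replicates, so those values are no check. For sites in both other replicates that spread ran from 36.5% to 90.4%, which few values could leave. Neighbouring bases are not independent, so the Wilson interval is too narrow for shares of bases. Sites of the same gene may not be independent either, so it may be too narrow for shares of sites. With equal list sizes, bases called in all 3 replicates were 28.9%, combined sites in all 3 were 24.1%, and the share within 3 kb of the 3′ ends was 29.01%. With 50% of each interval shared, sites in both other replicates were 32.7%, combined sites in all 3 were 18.5% and sites kept by the p filter 43.9%. At LOD above 2 the filter kept 68.6%. In the p-filtered list, 62.0% of the 9 genes' sites were in all 3 replicates, against 42.5% of that whole list, and their median percentile was 65.7. The share near the 3′ ends was 28.4% within 2 kb, 46.7% within 5 kb and 59.3% as the mean of the 9 genes' own shares. In the last 3 kb of the spans alone, 336 nt per kb were called. Leaving out 1 replicate also changes "all 3" to 2 lists: bases in all remaining replicates ranged from 39.2% to 69.9%, combined sites from 39.1% to 69.5% and the share within 3 kb from 28.7% to 34.3%, with the highest, highest and lowest of these without replicate 1. Apart from these changes of definition, the cause of the moves was not tested. No paired analysis was possible because the serum controls were not analysed here as separate values.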

Other observations

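HuR sites went on past the 3′ end of the HNRNPD span. Within 3 kb beyond it on the same strand there were 14 combined sites, of which 9 were found in all 3 replicate lists and 12 were kept by the p filter. Over all combined sites these shares were 22.9% and 52.3%. In these 3 kb, which also hold part of the site that crosses the end, 555, 1240 and 1375 nt were called in replicates 1, 2 and 3, with 550 nt called in all 3, about as much as the 505 nt in the last 3 kb of the span. The highest had a LOD of 16.1 (percentile 98.0) at chr4:83272901-83273015, 1452 nt past the end. GENCODE lists the gene 1323 nt longer than the span and no other same-strand gene within 3 kb, on another build. Beyond TIAL1, whose GENCODE gene is 1664 nt longer than the span, 112, 260 and 275 nt were called, with 80 nt in all 3. Beyond the 3′ ends of the other 7 genes at most 30 nt were called in any replicate, and none in all 3. Within 3 kb upstream of the 5′ ends, 45 nt were called in all 3 replicates beyond ZFP36, 125 nt beyond RC3H1 and 90 nt beyond RC3H2, and none beyond the other 6 genes. GENCODE, on another build, lists the same-strand gene ZBTB6 within 3 kb of RC3H2, and an RC3H1 gene 29312 nt longer than the span. Whether these upstream bases belong to ZBTB6 or to RC3H1 itself was not tested.

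The replicates differed in how 3′-weighted the called sequence was. In TIAL1 33.4%, 25.0% and 22.3% of the called bases lay in the last 3 kb in replicates 1, 2 and 3, and in RC3H2 27.9%, 22.2% and 18.9%. RC3H1 differed little, with 18.8%, 19.6% and 18.1%. Per Mb of called sequence ZFP36L2 held 62.9, 28.7 and 19.8 nt, ZFP36L1 67.3, 33.4 and 24.9 nt, and KHSRP 56.9, 29.6 and 21.3 nt. RC3H1 held 507, 372 and 315 nt, RC3H2 304, 270 and 230, TIA1 372, 320 and 258, TIAL1 306, 267 and 224, HNRNPD 152, 168 and 139, and ZFP36 6.57, 6.42 and 5.66 nt. The share was thus largest in the list of 186157 sites for 8 of the 9 genes, HNRNPD being the exception, and smallest in the list of 550681 sites for all 9. The part of list size was not tested.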
